A study of Caenorhabditis elegans with 3 samples.

Results

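Of the 3270 nuclear DPL-1 peaks that the authors kept, 265 lay at the start of a run of closely spaced genes on 1 strand, the arrangement of a worm operon. A gene was called a run head when another protein-coding gene on its strand started within 500 bp after its 3' end and none ended within 500 bp before its 5' end. A peak headed a run when its summit lay within 500 bp of the 5' end of such a head and of no protein-coding 5' end on the opposite strand. The rule used gene positions and summits, and no peak strength. The 265 peaks headed runs that held 644 genes in all, and they served 260 of the 2658 run heads in the genome. Another 351 heads were reached only by peaks that also served a gene on the opposite strand, which the rule leaves out, and 2047 heads had no peak.

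DPL-1 was mapped by ChIP-seq, in which DNA bound by a protein is recovered with an antibody (here anti-GFP) and sequenced, in whole young adult hermaphrodites of Caenorhabditis elegans strain YL507. This transgenic line carries DPL-1 with GFP and FLAG at its C-terminus, and the age of the worms is given as unknown. The 3 samples are biological replicates of 1 group. No untagged or input sample was analysed here, the depth of each replicate is unknown, and the labels list a separate sequencing protocol for replicates 1 and 2 but not for replicate 3. All 3 replicates come from 1 strain, the labels do not say whether untagged DPL-1 was also present, and whole animals mix germline and body cells, so weak binding in many cells and strong binding in few cannot be told apart.

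In worms, neighbouring genes in an operon are copied into a single long transcript from a promoter upstream of the first gene. Cleavage, polyadenylation and SL2 trans-splicing then turn that transcript into separate messenger RNAs, so a factor at the first promoter lies upstream of genes that can be several kilobases away. Worm operons hold many genes for translation, splicing, mitochondria and other functions that most cells need. DPL-1 is the worm DP protein, which binds DNA as a partner of E2F proteins such as EFL-1, and the pair belongs to the DREAM complex, known for holding cell cycle and germline genes in check. The runs here were built from gene positions alone. No trans-splicing data were used, so a run is operon-like and need not be an operon, and the annotated 5' end can lie where the leader is spliced on, some way past the true start of transcription.

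The sequences under 6 of the strongest peaks heading runs and 2 of the strongest peaks at genes inside runs are given first, because they show what the motif counts below rest on. Each is the 101 bp centred on the summit in ce11, taken from the RefSeq copy of the WBcel235 assembly and written 5' to 3' on the strand of the gene served. The E2F-like letters searched were TTNNCGC with each N either C or G, on both strands. The other element was TTNGAA with N either T or C, called CHR for cell cycle homology region and bound in DREAM by LIN-54, also on both strands. The shares of windows that hold them are given further on.
The first 3 windows hold an E2F-like match, in capitals, on either strand.
tasp-1 (chrIII:10759197-10759297, + strand): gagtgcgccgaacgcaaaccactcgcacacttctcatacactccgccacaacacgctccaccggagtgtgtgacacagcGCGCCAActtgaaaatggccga
sec-61.G (chrV:10897327-10897427, - strand): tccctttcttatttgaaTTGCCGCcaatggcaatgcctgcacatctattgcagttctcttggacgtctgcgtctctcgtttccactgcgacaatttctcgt
B0432.10 (chrII:285773-285873, - strand): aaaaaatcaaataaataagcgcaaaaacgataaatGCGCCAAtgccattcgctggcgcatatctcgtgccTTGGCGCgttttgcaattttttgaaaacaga
The next windows hold no E2F-like match, and capitals mark CHR letters where there are any.
rpb-11 (chrII:14059911-14060011, + strand): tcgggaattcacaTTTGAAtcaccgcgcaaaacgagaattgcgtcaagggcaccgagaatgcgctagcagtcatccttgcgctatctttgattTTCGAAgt
wip-1 (chrIII:5018273-5018373, + strand): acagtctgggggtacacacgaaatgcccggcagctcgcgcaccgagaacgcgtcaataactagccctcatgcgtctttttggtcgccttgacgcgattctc
hat-1 (chrIII:10407407-10407507, - strand): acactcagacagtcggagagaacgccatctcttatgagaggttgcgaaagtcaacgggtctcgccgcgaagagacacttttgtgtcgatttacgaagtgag
The last windows lie at internal genes, the second genes of their runs, and hold CHR letters but no E2F-like match.
ddp-1 (chrIII:1859693-1859793, + strand): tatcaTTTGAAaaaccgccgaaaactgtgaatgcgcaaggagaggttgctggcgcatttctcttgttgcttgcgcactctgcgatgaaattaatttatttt
eelo-2 (chrIV:17249844-17249944, + strand): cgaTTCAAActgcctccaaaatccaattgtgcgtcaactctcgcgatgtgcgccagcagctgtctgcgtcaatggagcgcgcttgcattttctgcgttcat

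DPL-1 peaks, counting also those that served both strands, were found at run heads more often than at other genes. Of the 611 heads with a peak, 260 were served by a peak heading a run and 351 only by peaks serving both strands. The shares of each gene class, here and below, count both kinds of peak. The IDR list is the authors' optimal list, thresholded by irreproducible discovery rate, and its peaks need not rank alike in every replicate. Intervals here are exact binomial 95% intervals and cover counting error only. In that list, 611 of 2658 run heads had a summit within 500 bp of the 5' end, 22.99% (21.4 to 24.6). Internal genes, those with a same-strand gene ending within 500 bp before them, had one in 333 of 3615 cases, 9.21% (8.29 to 10.2). Lone genes, with neither neighbour, had one in 1395 of 13700 cases, 10.2% (9.68 to 10.7). Over all 19973 nuclear protein-coding genes the share was 11.7%. In the authors' relaxed list of the pooled reads, which also holds background regions, the shares were 43.5% of heads, 44.3% of internal genes and 27.9% of lone genes, so the order of heads above internal genes belongs to the stricter list.

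Each replicate showed the same order of heads above both other classes. These shares were counted over each replicate's own 3295 strongest peaks, as many as the IDR list holds. Of all 3270 nuclear IDR peaks, 59.5, 83.7 and 63.5% were among those of replicates 1, 2 and 3, and 40.8% among those of all 3. The IDR list thus shared most peaks with replicate 2. In replicate 1 the share was 18.7% of heads, 8.93% of internal genes and 8.44% of lone genes, against 9.89% of all genes. In replicate 2 it was 23.1% of heads, 8.66% of internal genes and 10.2% of lone genes, against 11.6% of all. In replicate 3 it was 19.2% of heads, 10.6% of internal genes and 8.46% of lone genes, against 10.3% of all. The head share was thus highest in replicate 2 and the internal share in replicate 3, and the range of heads overlapped neither that of internal genes nor that of lone genes. Heads exceeded internal genes by 10.9 ± 3.10 percentage points and lone genes by 11.3 ± 1.42 (mean ± SD, n = 3 replicates). The two-sided exact sign-flip permutation test over replicates gave p = 0.25 for both, the smallest that 3 replicates can give, so this design cannot pass a threshold of 0.05.

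The difference from internal genes was much smaller where no protein-coding 5' end on the opposite strand was near. A head can share its upstream region with a gene on the opposite strand, whereas an internal gene has the preceding gene of its run there. Among genes with no opposite-strand 5' end within 1000 bp, 219 of 1810 heads had a peak (12.1%), against 327 of 3558 internal genes (9.19%) and 581 of 10867 lone genes (5.35%). The head share in replicates 1, 2 and 3 was 9.83, 12.5 and 10.9%, against 8.99, 8.63 and 10.6% for internal genes and 4.77, 5.53 and 4.63% for lone genes. Heads still lay above lone genes in each replicate, by 6.13 ± 0.984 points. They lay above internal genes by only 0.840, 3.91 and 0.315 points in the 3 replicates, a mean of 1.69 ± 1.94, which is smaller than its spread. Where an opposite-strand 5' end did lie within 1000 bp, 392 of 848 heads (46.2%) and 814 of 2833 lone genes (28.7%) had a peak. Only 57 internal genes fell in that class, and 6 had a peak.

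**Figure D1:**
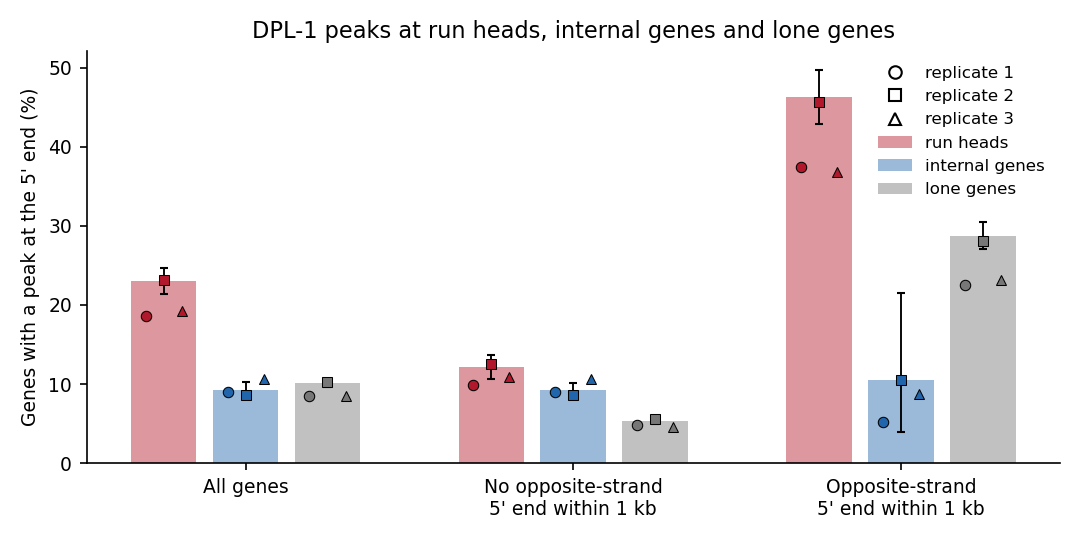
Share of run heads, internal genes and lone genes with a DPL-1 peak within 500 bp of the 5' end, for all genes and split by whether an opposite-strand 5' end lies within 1000 bp. Bars are the IDR list with exact binomial 95% intervals, and symbols are the 3 replicates' own strongest 3295 peaks; heads stand highest in the left and right sets, while in the middle set replicate 3 has 10.9% of heads and 10.6% of internal genes.

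Heads with a close downstream neighbour had a peak more often than heads with a distant one. In worm operons the cleavage site of one gene and the trans-splice site of the next are typically close together. Of 1103 heads whose next gene started at most 150 bp after their 3' end, 380 had a peak (34.5%, interval 31.6 to 37.3). Of 1555 heads with a longer gap of up to 500 bp, 231 had one (14.9%, 13.1 to 16.7). The share for the short gap in replicates 1, 2 and 3 was 28.2, 34.6 and 28.4%, against 11.9, 14.9 and 12.7% for the longer gap. The ranges did not overlap, and the difference was 17.2 ± 2.16 percentage points (n = 3, exact sign-flip permutation p = 0.25, the smallest possible). The 260 heads of peaks described here had a median gap of 118 bp, and 152 of them (58.5%) had a gap of at most 150 bp, against a median of 225 bp and 723 of 2047 (35.3%) for heads without a peak. The 150 bp limit was set after the values were seen.

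Internal genes showed the opposite order. Of 1590 internal genes that started at most 150 bp after the gene before, 71 had a peak of their own (4.47%), whereas 262 of 2025 (12.9%) with a longer gap had one. The share at the short gap in replicates 1, 2 and 3 was 5.85, 4.09 and 7.55%, against 11.4, 12.2 and 13.0% at the longer gap, a difference of -6.37 ± 1.55 points. Internal genes with a peak had a median gap of 281 bp before them, and those without one 171 bp. Close spacing thus went with a higher share of peaks at heads and a lower share at internal genes. Each gene was sorted by its own gap, so these shares do not describe peaks within single runs.

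The split by gap held, and reversed between classes, where no opposite-strand 5' end lay within 1000 bp. There 130 of 684 heads with the short gap had a peak (19.0%), against 70 of 1560 internal genes with the short gap (4.49%). In replicates 1, 2 and 3 heads exceeded internal genes by 9.97, 15.8 and 9.77 points. With the longer gap, 89 of 1126 heads had a peak (7.90%), against 257 of 1998 internal genes (12.9%). In this class heads lay below internal genes in every replicate, with a mean difference of -5.09 ± 0.942 points (n = 3). The gap of a head lies after its 3' end, whereas that of an internal gene lies before its 5' end. These comparisons therefore pair unlike distances and do not divide the pooled difference between heads and internal genes into parts.

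**Figure D2:**
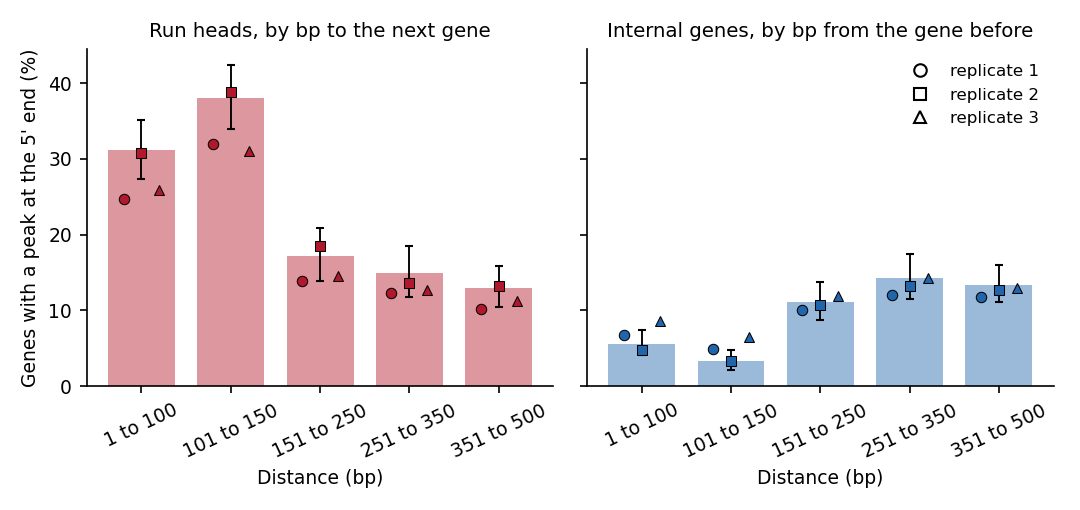
Share of genes with a DPL-1 peak at the 5' end by distance, for run heads (left, bp from the 3' end to the next gene) and internal genes (right, bp from the 3' end of the gene before). Bars are the IDR list with exact binomial 95% intervals and symbols the 3 replicates; heads reach 31.1 and 38.1% in the nearest 2 bins and internal genes 5.58 and 3.32%, while beyond 150 bp both lie between 11.1 and 17.2%.

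Heads of longer runs carried peaks more often. The share was 21.4% for 2007 heads of 2-gene runs, 24.9% for 458 heads of 3-gene runs and 35.2% for 193 heads of runs of 4 to 9 genes (28.5 to 42.4). For runs of 4 or more genes replicates 1, 2 and 3 gave 32.1, 36.8 and 29.5%, against 17.1, 21.4 and 17.9% for 2-gene runs. The difference was 14.0 ± 2.05 points (n = 3, exact sign-flip permutation p = 0.25, the smallest possible). It was 11.1 ± 1.13 points among heads with no opposite-strand 5' end within 1000 bp. Runs of 6 to 9 genes numbered only 21, and 7 of their heads had a peak. Run length was not separated from the length of the first gap.

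Within runs of 4 or more genes the share dropped after the first gene. It was 35.2% at the first gene, 16.6% at the second, 10.9% at the third and 11.4% at position 4, each over 193 runs. The first gene was highest in all 3 replicates, and the order of positions 3 and 4 differed between replicates. These shares count peaks that also served a gene on the opposite strand. Among heads of these runs with no opposite-strand 5' end within 1000 bp, 24 of 110 had a peak (21.8%, 14.5 to 30.7). Later positions were not split in this way. Over all runs, 112 of 899 internal genes downstream of a head with a peak had a peak of their own (12.5%, 10.4 to 14.8). Downstream of a head without one the count was 218 of 2690 (8.10%, 7.10 to 9.20). A peak at the head was thus not accompanied by fewer peaks inside the run. Only 1 internal gene was served by the same peak as its head.

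**Figure D3:**
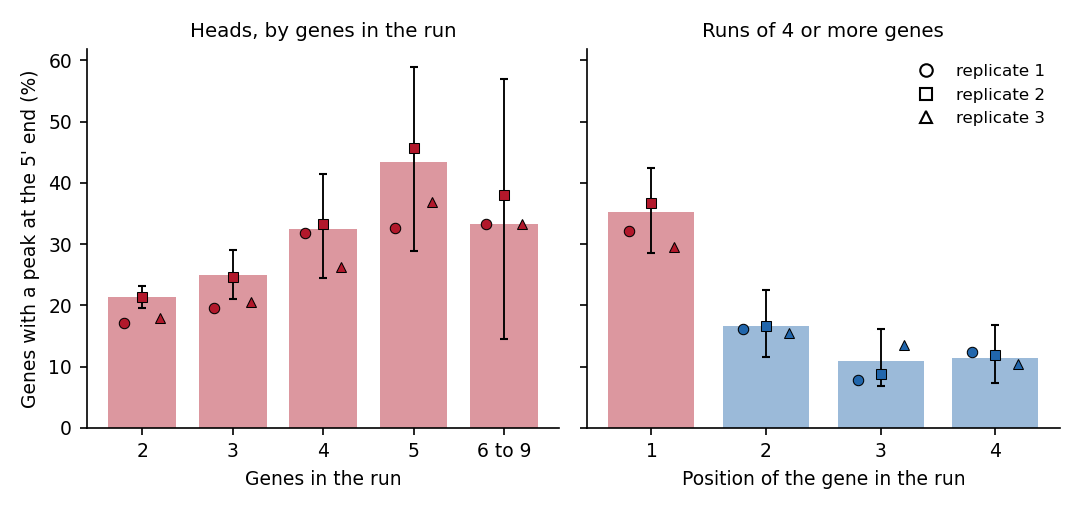
Share of heads with a DPL-1 peak by the number of genes in the run (left), and share of genes with a peak by position in runs of 4 or more genes (right). Bars are the IDR list with exact binomial 95% intervals and symbols the 3 replicates. The share is 35.2% for heads of runs of 4 or more genes, against 21.4% for heads of 2-gene runs. It is 16.6% or less for later genes of the long runs. Heads of the long runs with no opposite-strand 5' end within 1000 bp, not drawn, had 21.8%.

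Most of the peaks heading runs sat in intergenic sequence just upstream of the first gene. The median summit lay 204 bp upstream of the annotated 5' end (quartiles 297 and 115 bp upstream), and 239 of 265 (90.2%) lay upstream. Peaks at internal genes sat closer, at a median of 141 bp upstream, with 273 of 328 (83.2%) upstream. Of the summits heading runs, 223 (84.2%) lay in no annotated gene, 17 in introns, 14 in exons of noncoding genes or pseudogenes, 9 in untranslated regions and 2 in coding exons. At internal genes 236 of 328 (72.0%) lay in no annotated gene and 42 (12.8%) in untranslated regions. By definition a same-strand gene ends within 500 bp upstream of every internal gene and of no head, so the intergenic room differs. How much of these differences goes with that room was not tested. Of the internal summits, 249 (75.9%) lay in the gap between the gene and the one before it, and 24 lay inside the gene before.

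**Figure D4:**
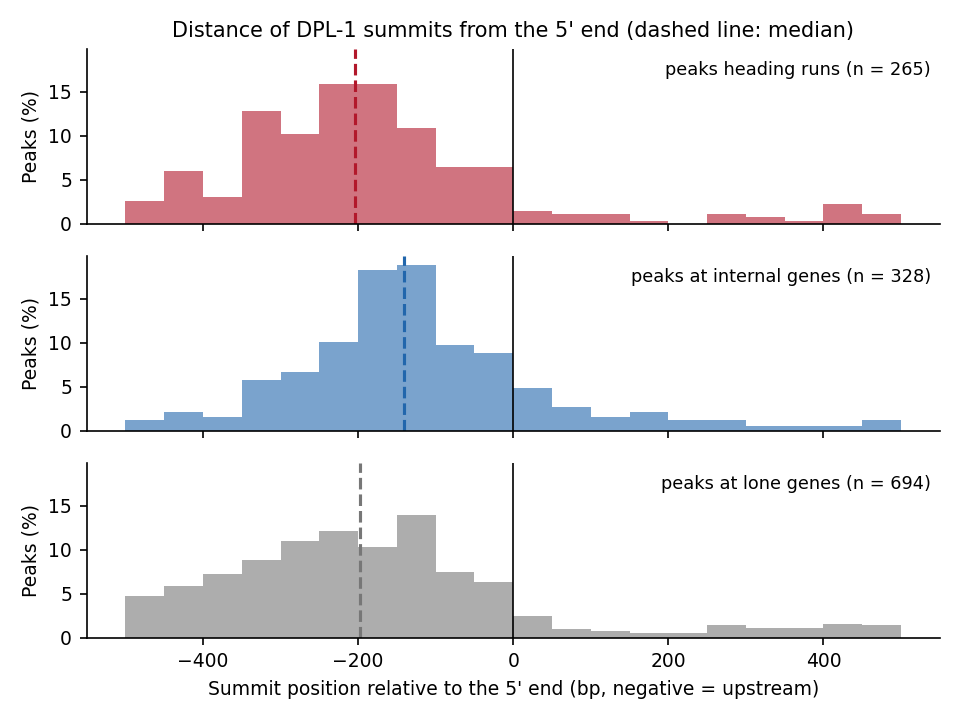
Distance of DPL-1 summits from the 5' end of the gene served, in 50 bp bins, as the share of 265 peaks heading runs, 328 peaks at internal genes and 694 peaks at lone genes. The dashed medians lie at -204, -141 and -198 bp.

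In strength, peaks heading runs lay among the other promoter peaks. Signal is the authors' measure of peak strength, used here only within a list. The median signal in the IDR list was 102.7 for peaks heading runs (quartiles 65.7 and 168), against 95.6 at internal genes, 87.8 at lone genes and 71.2 for peaks away from 5' ends. Of the 265, 230, 262 and 244 had a summit within 100 bp in replicates 1, 2 and 3, and their median ranks there were 1430, 1197 and 1345, against 1271, 1295 and 1383 for peaks at internal genes. Over each replicate's own strongest peaks, matched to no other list, the median ranks of peaks heading runs were 1186, 1202.5 and 1219, against 1379, 1153 and 1536 for internal peaks. The order thus differed between replicates and between the ways of counting, except in replicate 3, where peaks heading runs ranked better in both. Of the 265, 131 (49.4%, interval 43.3 to 55.6) were among the strongest 3295 of all 3 replicates, 70 of only 2, 60 of only 1 and 4 of none. The same share was 49.7% for internal peaks, 43.5% for peaks at lone genes and 40.8% for all nuclear peaks. Only 5 of the 265 lay within 250 bp of a tRNA gene, against 7 of the 328 internal peaks and 276 of all 3270.

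The strongest peak heading a run was also among the strongest of the whole list. It lay 60 bp upstream of tasp-1, a homologue of the protease taspase 1, with a signal of 3251 (peak chrIII:10759035-10759468). The only other gene of the run is dpy-28, a condensin subunit that also serves in dosage compensation of the X chromosome, 110 bp further on and with no peak of its own. Its ranks were 5, 4 and 5 in replicates 1, 2 and 3. It was the only peak heading a run to rank among the first 20 in any replicate, and its window holds an E2F-like match centred 32 bp from the summit.

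A group of 3 peaks followed with similar ranks in the replicates. Upstream of sec-61.G, the gamma subunit of the Sec61 channel that moves proteins into the endoplasmic reticulum, the signal was 744 and the ranks 58, 32 and 29 in replicates 1, 2 and 3. Upstream of rpb-11, an RNA polymerase II subunit, the signal was 710 and the ranks 35, 42 and 37. Upstream of wip-1, which encodes a WASP-interacting protein of the actin cytoskeleton, the signal was 621 and the ranks 44, 52 and 41. These runs differ inside. The second gene of the sec-61.G run, F32D8.13, and the later genes of the wip-1 run, mdt-11 (a Mediator subunit), R144.3 and R144.13, had no peak. In the rpb-11 run the third gene, lem-2, which encodes an inner nuclear membrane protein, had a peak of its own with signal 174, 490 bp after the gene before it.

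Genes for transport between cytoplasm and nucleus stood among the strongest heads. The peak at imb-3, an importin beta, had signal 505 and ranked 85, 75 and 92, and that at ima-2, an importin alpha of the germline, had signal 460 and ranked 168, 90 and 52. Both runs have 2 genes, and both second genes had a weaker peak of their own. At hrpk-1, an hnRNP K homologue 435 bp after ima-2, the signal was 259, and at C53D5.5 it was 56.6, found among the strongest peaks of replicate 2 only. The peak at ant-1.1, the mitochondrial ADP/ATP carrier, had signal 530 and ranked 121, 51 and 84. The next gene, kel-3, had peaks of its own, the strongest with signal 133 and its summit in an untranslated region.

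The rest of the 12 strongest peaks headed runs whose later genes had no peak. At citk-2, the first of 4 genes, the signal was 521 and the ranks were 53, 69 and 150. At rps-28, a small-subunit ribosomal protein, the summit lay 444 bp upstream, the signal was 442 and the ranks were 147, 72 and 170. At hat-1, a histone acetyltransferase homologue that lies 8 bp before chl-1, a homologue of the CHL1 DNA helicase, the signal was 400 and the ranks were 92, 133 and 116. The peak at mrpl-47, a mitochondrial ribosomal protein gene, lay 2 bp past its 5' end, with signal 391 and ranks 138, 97 and 164. Its run continues with let-363, the worm TOR kinase. B0432.10 was the exception in position, since its summit lay in an intron 452 bp inside the gene, with signal 436 and ranks 99, 113 and 68. All 12 peaks were among the strongest 170 of every replicate.

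**Figure D5:**
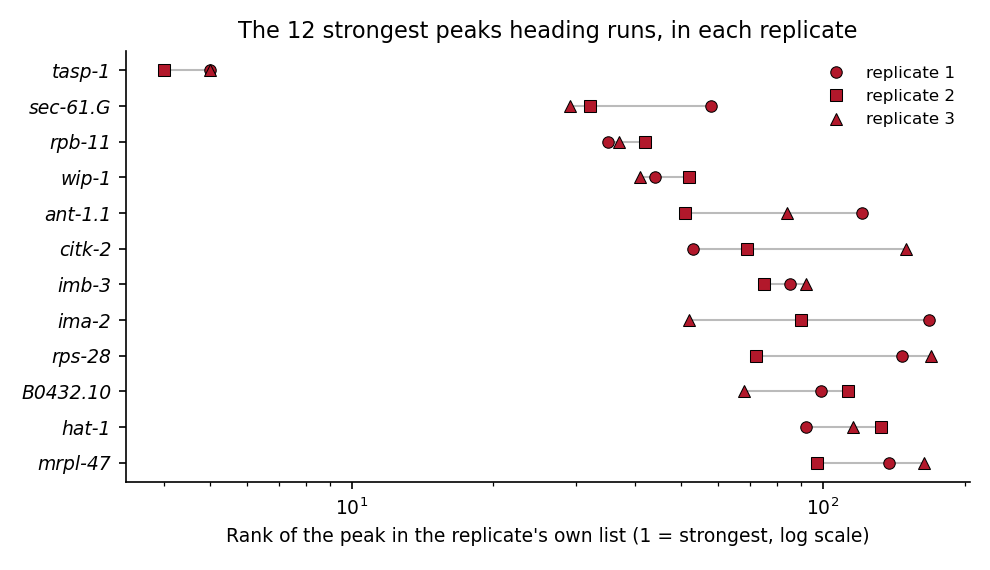
Rank of the 12 strongest peaks heading runs in each replicate's own list (1 is strongest, log axis), named by the first gene of the run. The peak at tasp-1 ranks 4 or 5 in every replicate, and the other 11 lie between rank 29 and rank 170.

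The 3 longest runs with a peak heading them differed in whether later genes also had one. The runs of ztf-7, uaf-2 and ril-1 tie with the third, at 6 genes, which was picked by chromosome order. The 9-gene run headed by sgo-1, a worm homologue of shugoshin, had a modest peak at its head (signal 91.6, ranks 1825, 2013 and 1076). A stronger one lay at gene 4, rsp-6, an SR splicing factor (signal 423, ranks 176, 96 and 66), 475 bp after the gene before it. The next genes, imp-3 and tag-322, also had peaks. The strongest at each, of signal 123 and 102, were among the strongest 3295 of replicate 2 only. Another peak at imp-3 lay 245 bp upstream. The 8-gene run headed by ran-4, an NTF2 homologue that imports Ran into the nucleus, had a weak head peak (signal 64.4, ranks 6944, 2367 and 4346) found among the strongest of replicate 2 only. Gene 6 of that run, snrp-27, had a peak of its own (signal 49.9), also among the strongest of replicate 2 only. In the 6-gene run of ndus-8, a subunit of respiratory complex I, the head had signal 102 and ranks 1587, 1893 and 1533, and none of the later genes, which include the RNA-editing factor adr-2, had a peak.

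Runs of similar length had no peak at the head. The 8-gene run of golg-5 holds gld-1, a translational repressor of the germline, and gna-2, and its single peak lay at the last gene, T23G11.11 (signal 128). The 7-gene run of rpb-6, an RNA polymerase subunit, holds the mitochondrial ribosomal protein genes dap-3 and mrps-22 and the nucleases crn-3 and crn-5, and none of its genes had a peak. None of the 6 genes in the run of ZC239.17 had one either.

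The strongest peaks at internal genes exceeded all but the first of those heading runs. At Y39B6A.43 the signal was 1132 and the ranks were 24, 13 and 17 in replicates 1, 2 and 3, with the preceding gene 76 bp away. At ddp-1, a homologue of the mitochondrial import protein Tim8, the signal was 947 and the ranks were 22, 23 and 25, with a gap of 286 bp. At eelo-2 the signal was 936 and the ranks were 25, 20 and 22, with a gap of 381 bp. Each is the second gene of its run. They were picked by signal in the list made from these same replicates, so their ranks there are not separate support.

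E2F-like letters were found under peaks heading runs at a share close to that under other promoter peaks. Of the 265 windows of 101 bp, 46 held one (17.4%, 13.0 to 22.5), against 63 of 328 at internal genes (19.2%, 15.1 to 23.9), 129 of 694 at lone genes (18.6%) and 14.6% at all 3270 nuclear peaks. In windows at the same place, 204 bp upstream, of the heads without a peak, 69 of 2047 held one (3.37%, 2.63 to 4.25), and of all protein-coding genes 3.56% did. In the replicates' own lists the share under peaks heading runs was 12.8, 18.2 and 17.4% in replicates 1, 2 and 3, against 14.0, 19.5 and 17.5% at internal genes, a difference of -0.863 ± 0.696 points. The same letters read backwards, a control for base composition, were found in 10.9% of windows heading runs and 1.12% of windows at heads without a peak, and the mean GC content was 46.8% and 33.8%. How much of the difference from heads without a peak goes with GC content was not tested.

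CHR letters were less frequent under peaks heading runs than under peaks inside runs. They were found in 70 of 265 windows (26.4%, 21.2 to 32.2), against 126 of 328 at internal genes (38.4%, 33.1 to 43.9) and 187 of 694 at lone genes (26.9%). In replicates 1, 2 and 3 the share was 29.7, 25.2 and 28.9% for peaks heading runs, against 34.0, 38.4 and 34.5% for internal peaks. It was lower in all 3 replicates, with a mean difference of -7.69 ± 4.86 points (exact sign-flip permutation p = 0.25, the smallest possible). The mean GC content was 46.8% in the windows heading runs and 43.9% in the internal ones, whose part in the difference was not tested. Of heads without a peak 34.7% held CHR letters in the window 204 bp upstream, and of all protein-coding genes 34.5% did.

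Gene families differed widely in how often their run heads had a peak, beside 22.99% for all heads. The lists were collected by gene symbol, no test was made on them, and 3 of them were corrected after their counts were seen. For cytosolic ribosomal proteins, 26 of 27 heads had a peak, 9 of them by a peak heading a run, against 3 of 9 internal genes and 40 of 44 lone genes. Among mitochondrial ribosomal proteins the counts were 11 of 16 heads, 2 of 27 internal genes and 16 of 27 lone genes. In 14 of those 27 internal cases the run's head had a peak. The RNA polymerase II, Mediator, Integrator and TFIID list gave 10 of 17 heads, 3 of 21 internal genes and 12 of 21 lone genes. The proteasome gave 6 of 8 heads, 3 of 8 internal genes and 13 of 17 lone genes. A peak heading a run served 2 of the mitochondrial, 2 of the polymerase and 0 of the proteasome heads. In these 4 lists the heads were near the lone genes and the internal genes lay lower.

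Lists of chromosome and cell cycle genes differed among themselves. Chromosome segregation genes, here including kinesins, had a peak at 13 of 14 heads, 3 of 7 internal genes and 32 of 53 lone genes, and DNA repair and checkpoint genes at 7 of 8 heads, 3 of 12 internal genes and 7 of 16 lone genes. DREAM and synMuv genes, the set that includes the partners of DPL-1, had one at 6 of 6 heads, 1 of 4 internal genes and 4 of 14 lone genes. DNA replication genes had one at 6 of 9 heads, 3 of 8 internal genes and 18 of 24 lone genes. Cyclins, their kinases and the anaphase-promoting complex had one at 2 of 6 heads, 0 of 8 internal genes (a count of 0 allows up to 37.5%) and 10 of 22 lone genes. A peak heading a run served 4 of the segregation heads, 4 of the repair heads and 3 of the DREAM and synMuv heads. It served 3 of the replication heads and 0 of the cyclin list's heads. The strongest peaks heading runs lay at chk-1, a checkpoint kinase of the DNA repair list (signal 292, ranks 393, 193 and 225), at lin-36, a synMuv B gene that restrains vulval fates (signal 193, ranks 382, 612 and 682), at psf-3, a subunit of the replicative GINS complex (signal 168, ranks 702, 585 and 709), and at bir-1, the worm survivin of the segregation list (signal 120, ranks 1611, 862 and 1517). All 4 were among the strongest 3295 peaks of every replicate. The run of bir-1 continues 111 bp on with skp-1, a splicing and transcription cofactor, which had no peak.

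The other lists also ranged widely. Translation factors had a peak at 7 of 14 heads, 3 of 7 internal genes and 15 of 18 lone genes, tRNA synthetases at 3 of 7, 2 of 11 and 4 of 14, and ubiquitin enzymes and cullins at 4 of 10, 5 of 13 and 6 of 32. Their strongest peaks heading runs lay at eif-3.B, an initiation factor 3 subunit (signal 338, ranks 141, 141 and 241), at ubc-7, a ubiquitin-conjugating enzyme (signal 369, ranks 244, 116 and 132), and at kars-1, the lysyl-tRNA synthetase (signal 87.3, ranks 2551, 1447 and 2018). The runs of ubc-7 and kars-1 hold a gamma-tubulin, tbg-1, and a meiotic MutS homologue, him-14. Nuclear pore and transport genes, whose strongest was imb-3, described above, had a peak at 8 of 9 heads, 1 of 5 internal genes and 23 of 26 lone genes. Respiratory chain genes had one at 14 of 20 heads, 8 of 20 internal genes and 14 of 27 lone genes, and 2 of the 14 heads were served by a peak heading a run, the stronger being that of ndus-8. Splicing and mRNA processing genes had one at 7 of 12 heads, 5 of 14 internal genes and 15 of 22 lone genes, and the nucleolus list at 4 of 4, 2 of 11 and 8 of 12. A peak heading a run served 4 of the translation heads, 3 of the synthetase heads and 3 of the ubiquitin heads. It served 6 of the nuclear pore heads, 2 of the splicing heads and 1 of the nucleolus heads.

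Large families with narrow expression had few marked heads. Chemoreceptors had a peak at 0 of 171 heads (a count of 0 allows up to 1.75%), 1 of 202 internal genes and 3 of 936 lone genes, F-box and MATH-BTB genes at 1 of 56, 2 of 74 and 10 of 282, collagens at 1 of 19, 1 of 26 and 3 of 127, and nuclear hormone receptors at 3 of 30, 0 of 38 (up to 7.89% allowed) and 4 of 201. The strongest of the 3 receptor heads was nhr-49, a regulator of fat metabolism (signal 110, ranks 4209, 875 and 1795), 18 bp before the innexin inx-20.

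A short list of operons known from textbooks had 15 genes found by symbol, and no peak heading a run lay at any of them. Of its 7 internal genes, 5 lay in runs whose head had a peak, and in 2 of these runs that peak was of the kind described here. They are tra-2, a sex determination gene in the run of sod-1 (strongest head peak with signal 139, ranks 1511, 726 and 619), and lir-1 in the run of rpa-1 (signal 49.5, ranks 4293, 2460 and 16952). Of the 5 that were heads under the rule, mev-1 and fib-1 were reached only by peaks that also served a gene on the opposite strand. The peak at mev-1, a succinate dehydrogenase subunit followed by the Bcl-2 homologue ced-9, had signal 294 and ranks 202, 262 and 123, and that at fib-1, the nucleolar fibrillarin followed by rps-16, had signal 238 and ranks 525, 289 and 246. The heads des-2, gpd-2 and lin-26 had no peak, but gpd-2 and lin-26 count as heads only because they overlap the gene before them, mai-1 and lir-1. The first gene of that operon, mai-1, counts as a lone gene and had an IDR peak, with its summit in an untranslated region (signal 61.4, rank 22562 in replicate 1 and 1478 in replicate 2, no summit within 100 bp in replicate 3). The overlapping lin-15B and lin-15A also count as lone genes and had no peak. The rule therefore misses operons whose genes overlap in the annotation.

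By chromosome, the 265 peaks numbered 51 on I, 53 on II, 60 on III, 47 on IV, 39 on V and 15 on X. The share of heads with a peak was 31.0, 21.9, 38.4, 25.1, 12.8 and 9.09% on these chromosomes in the same order. It was above the internal share (14.3, 8.997, 11.6, 9.82, 5.22 and 4.48%) and the lone share (16.9, 10.3, 17.8, 9.38, 6.18 and 5.93%) on all 6.

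The limits of the rule fell among ordinary values. The farthest summit counted lay 496 bp from the 5' end of cas-1 (signal 53.8), and the nearest left out lay 501 bp from that of unc-84 (signal 45.9). The widest first gap counted was 494 bp, after ZK622.4 (signal 96.4), and the narrowest left out was 501 bp, after W03H9.2 (signal 139).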

How the data were processed

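The authors deposited ChIP-seq peak lists on ce11 and ce10, and the 5 ce11 lists were used: a relaxed list per replicate (28383, 30000 and 30000 peaks), a relaxed list of the pooled reads (30000) and the optimal IDR list (3295). The ce10 lists were not used. Each peak's signal is the value the authors deposited, on a scale that differs between lists. The depth is unknown, and the names of aligner and peak caller were not given in the sources used here. Genes came from Ensembl release 115 (WBcel235), where 222 symbols are shared or missing. The summit was the deposited start plus offset, and 1 IDR peak had its offset outside the peak. Of the internal genes, 26 could not be reached from a head. Replicate ranks are of the nearest summit within 100 bp. Shares have exact binomial (Clopper-Pearson) 95% intervals, and replicate differences a two-sided exact sign-flip permutation test. Python 3.11.15 with numpy 2.4.6, pandas 2.3.3, scipy 1.17.1 and matplotlib 3.10.9 was used, and the assignment of peaks to genes was tested on simulated data. Named genes were the heads of the 12 strongest peaks with the genes of their runs, the 3 longest runs with and without a peak at the head, the 3 strongest internal genes, the strongest head in lists with at least 3 such heads, textbook operons and the items at the limits. Ties in run length were broken by chromosome and start. Alternatives varied the distances, lists, replicates and motif window. Members and lists were chosen with earlier results of these data known, and the membership of the respiratory chain, DNA replication and cyclin lists was corrected after their counts were seen.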

Additional observations from a re-analysis of the deposited data

How the results depend on the processing

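Under the alternatives run, the differences of heads from internal and lone genes, and of long from 2-gene runs, kept their direction. Over the relaxed pooled list taken alone, however, heads (43.5%) lay just below internal genes (44.3%). Internal genes lay below lone genes in the main setting (9.21 and 10.2%). They lay above lone genes at a summit distance of 250 bp, with the nearest 5' end only, and with no opposite-strand 5' end near. No paired analysis was possible because the samples form 1 group. In the order head share, internal share, lone share, heads minus internal, heads minus lone and long minus 2-gene runs, the values below are percent or percentage points. A summit distance of 250 bp gave 14.5, 7.25, 6.44, 7.27, 8.08 and 7.84, and one of 1000 bp gave 28.2, 11.6, 12.8, 16.5, 15.4 and 20.1. A gene gap of 250 bp gave 29.6, 6.32, 10.5, 23.2, 19.1 and 17.9, and one of 1000 bp gave 18.6, 8.91, 10.8, 9.65, 7.77 and 4.92. Serving only the nearest 5' end gave 15.95, 9.05, 7.64, 6.91, 8.31 and 9.72, with 431 peaks heading runs, since divergent peaks then serve 1 gene. The stronger 50% of IDR peaks gave 15.7, 5.31, 6.16, 10.3, 9.49 and 8.79, with 167 peaks of which 74.9% were in all 3 replicates. Peaks in the strongest lists of all 3 replicates gave 12.5, 4.56, 5.07, 7.93, 7.42 and 7.98, with 131 peaks. Leaving out each replicate in turn, which keeps IDR peaks in the strongest lists of the other 2 and so fewer of them, gave 171, 138 and 154 peaks without replicates 1, 2 and 3, and 12.98 to 16.03, 4.87 to 5.67, 5.30 to 6.39, 8.11 to 10.4, 7.68 to 9.63 and 8.0 to 11.0, with E2F-like letters in 18.8 to 21.1%. Genes with no opposite-strand 5' end gave 12.1, 9.19, 5.35, 2.91, 6.75 and 10.5. Genes with a pooled relaxed peak gave 52.8, 20.8, 36.5, 32.0, 16.3 and 5.87. The E2F-like share was 9.06% within 25 bp and 24.2% within 100 bp. Allowing genes to overlap and, chosen after seeing the data, leaving out peaks near tRNA genes moved no value beyond the replicate spread. Unknown depth limits any reading of a missing peak.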

Other observations

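In the relaxed list of the pooled reads, which holds 30000 peaks and background regions, run heads and internal genes had summits at close shares. A summit lay within 500 bp of the 5' end of 1157 of 2658 heads (43.5%), 1601 of 3615 internal genes (44.3%) and 3824 of 13700 lone genes (27.9%). Among genes with such a summit, an IDR peak was present at 52.8% of heads, 20.8% of internal genes and 36.5% of lone genes. The relaxed list includes regions the authors describe as background, and no untagged sample was set beside it.

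The 265 peaks heading runs had a median signal of 102.7, against 110 for the 530 peaks serving genes on both strands, which alone reached 351 heads. Of the peaks heading runs 49.4% were among the strongest 3295 of all 3 replicates, against 55.1% of those serving both strands. E2F-like letters were held by 17.4% of windows heading runs, against 17.2%, and CHR letters by 26.4%, against 34.7%. Peaks heading runs had a median width of 263 bp, against 304 bp at internal genes and 243.5 bp at peaks serving both strands.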
